A study of Mus musculus with 16 samples.

Results

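Primary hippocampal cultures of newborn C57Bl/6N mice that carried a short hairpin RNA (shRNA) against the long isoform of DNA methyltransferase 3a were compared with cultures that carried a control hairpin, both after 4 h of bicuculline. The comparison takes 8 of the 16 RNA sequencing libraries of the series, chosen by their labels. The first group, Dnmt3a1-shRNA2, received a recombinant adeno-associated virus (rAAV) with the Dnmt3a1 hairpin and then 50 µM bicuculline (4 libraries), and the second, Control-shRNA, received the control virus and the same treatment (4 libraries). Cultures were infected on day in vitro 4 and used on days in vitro 9 to 11. The 8 unstimulated libraries, 4 of each virus, are used only for comparison. The hairpin is expressed from a U6 promoter, which is not restricted to neurons, and the same virus carries GFP. Cells of any type that took up the virus could therefore carry the hairpin. In its account of the injections into mice, the study says that the viral serotype was chosen for its tropism for neurons. The number of the construct is not in the labels and was taken from the text of the study. These libraries hold 1 hairpin against Dnmt3a1, so the effect of Dnmt3a loss and any other effect of this hairpin cannot be told apart.

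Dnmt3a adds methyl groups to cytosines that carried none before. In neurons it acts after birth on CpG sites and on cytosines outside CpG, and methylated DNA is read by proteins that bind it. The gene has a long and a short product, Dnmt3a1 and Dnmt3a2, which start from different promoters and share the catalytic part. Bicuculline blocks GABA-A receptors and makes the cultured network fire in bursts, which switches on immediate early genes within the hour and secreted and synaptic genes after them. The comparison asks which genes of stimulated neurons depend on the knockdown.

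The hairpin is directed at a 25-base stretch of the Dnmt3a1 messenger RNA. It is shown because it defines the knockdown and because a word of it recurs in the 3′ untranslated regions of genes that fell. It was read here from the annotated transcript Dnmt3a-201 (GENCODE M21, GRCm38, plus strand), where 17 bases lie at the end of exon 2 and 8 at the start of exon 3, between positions 3835244 and 3849642 of chromosome 12. Capitals mark bases 13 to 19 of the target, counted from its 5′ end, a 7-base word that is taken up again with the genes that fell.
Dnmt3a1-shRNA2 target: gggaggatgatcGAAAGGAaggaga

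Dnmt3a (ENSMUSG00000020661.15; chromosome 12, 3806007 to 3914443, plus strand), the targeted gene, held 338, 333, 325 and 311 CPM (counts relative to the TMM-scaled library total) in the Control-shRNA libraries, replicates 1 to 4, and 45.1, 47.8, 44.5 and 43.8 CPM in the Dnmt3a1-shRNA2 libraries. The groups were far apart, and the level in the knockdown was 13.9% of that in the control. The log2 fold change was −2.85 (standard error 0.06, adjusted p = 7.43e-15), and the exact permutation test of log2 CPM gave p = 0.0286 (two-sided), the smallest p that 4 against 4 libraries allow. All transcripts of the gene are summed in these tables, so the value covers Dnmt3a1 and Dnmt3a2 together. Dnmt1, which copies methylation at replication, held 53.1 to 58.3 CPM in Control-shRNA cultures and 49.4 to 55.02 CPM in Dnmt3a1-shRNA2 cultures and did not pass the test (−0.13, standard error 0.06, adjusted p = 0.120). Dnmt3b, the other enzyme that sets new methylation, was near the detection limit, at 0.0686 to 0.213 and 0.185 to 0.285 CPM, with overlapping groups (0.90, standard error 0.38, adjusted p = 0.146).

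Across the 17222 genes tested, 1015 differed between the stimulated knockdown and control cultures (5.89%), 344 higher (2%) and 671 lower (3.9%), by edgeR's quasi-likelihood test at a Benjamini-Hochberg adjusted p under 0.05 and a log2 fold change above 0.5 in either direction. Most changes were of moderate size. The median log2 fold change was 0.65 among genes called higher and −0.74 among genes called lower, with median standard errors of 0.15 and 0.13. A log2 fold change of more than 1 was reached by 42 genes upward and 143 downward. The knockdown and control libraries did not overlap in 881 of the 1015 genes, as in 3607 of all genes tested (20.9%). Of the called genes 66.1% were lower. The share depends on the scaling between libraries: with library sizes alone it was 80.8% of 1107, and with log2(TPM + 1) 85.5% of 787. Under these scalings the median of all genes lay at −0.08 and −0.07. The totals of the 8 libraries ran from 28912480 to 29111298 counts. TMM factors ran from 0.871 to 0.968 in the knockdown and from 0.928 to 1.002 in the control. Mitochondrial genes took 3.58% to 6.60% and 3.34% to 5.86% of the counts. The ranges of all of these overlapped between the groups. At every replicate number, however, the knockdown library had the lower TMM factor and the higher mitochondrial share. TMM factors of replicates 1 to 4 were 0.871, 0.932, 0.968 and 0.932 against 0.928, 0.975, 1.002 and 0.983. Mitochondrial shares were 6.60%, 5.55%, 3.58% and 5.04% against 5.86%, 4.15%, 3.34% and 3.87%. No source used here says whether libraries of the same number share a preparation. In bulk RNA fewer cells of a type and less RNA per cell cannot be told apart.

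**Figure D1:**
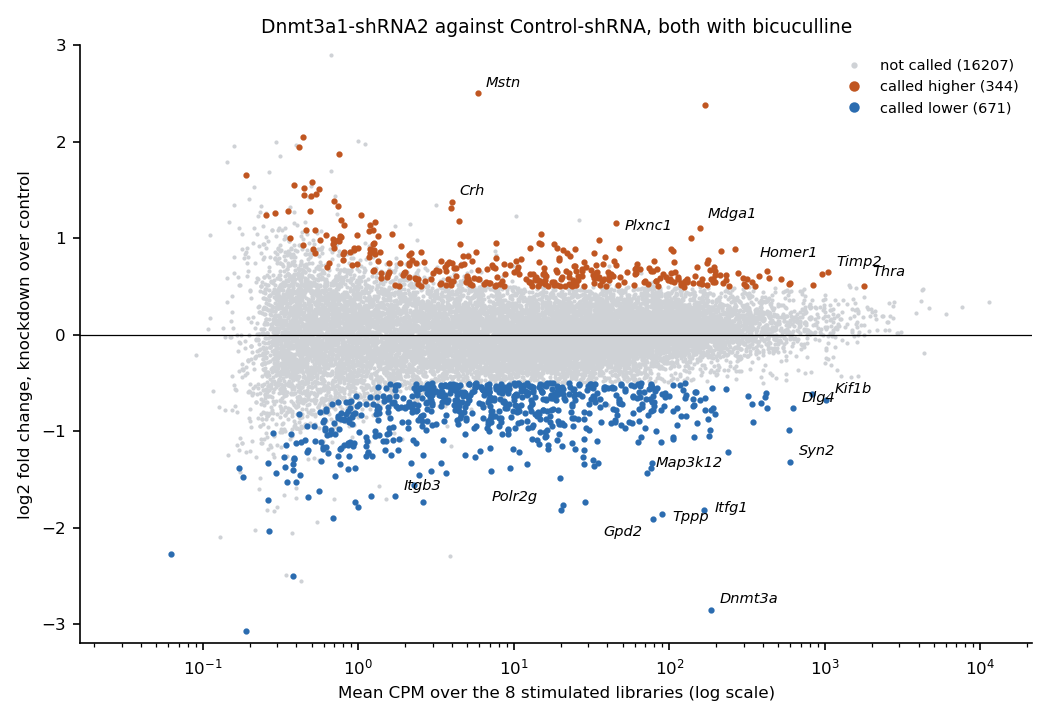
Log2 fold change of each tested gene, knockdown over control with bicuculline, against its mean level over the 8 stimulated libraries (log axis). Blue points are the 671 genes called lower, orange points the 344 called higher and grey points the rest; Dnmt3a lies lowest among genes of high level, Mstn stands above the other increases that are labelled, and 10 genes with a fold change outside the plotted range are not drawn.

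Next to Dnmt3a, the 11 largest decreases among protein-coding genes of at least 1 CPM with groups that did not overlap ran from −1.91 to −1.43 on the log2 scale. Gpd2, the mitochondrial glycerol-3-phosphate dehydrogenase, was 124, 127, 126 and 121 CPM in Control-shRNA cultures and 31.7, 31.99, 35.1 and 33.3 CPM in Dnmt3a1-shRNA2 cultures. Its 4 knockdown libraries lay within 4 CPM of each other and below every control library, which on the log2 scale is a difference of −1.91 (standard error 0.06, adjusted p = 8.49e-13). Tppp, which promotes the polymerization of tubulin, was 149, 127, 137 and 148 CPM in the control and 41.8, 36.8, 36.03 and 39.5 CPM in the knockdown (log2 fold change −1.86, standard error 0.11, adjusted p = 4.07e-09). Itfg1, a membrane protein with integrin-like repeats, was 259.8, 253, 271 and 264 CPM in the control and 76.8, 77.01, 73.2 and 69.7 CPM in the knockdown (log2 fold change −1.82, standard error 0.05, adjusted p = 1.64e-13). For all of these the fall left less than 30% of the control level, at 26.5%, 27.5% and 28.3%. Polr2g, a subunit of RNA polymerase II, fell from 31.9 ± 4.54 to 9.39 ± 0.969 CPM (SD, n = 4; −1.76, standard error 0.10, adjusted p = 3.60e-09). Scarb1, a receptor for high-density lipoprotein, fell from 44.2 ± 6.39 to 13.3 ± 1.80 CPM (SD, n = 4; −1.73, standard error 0.11, adjusted p = 1.06e-08).

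Map3k12, a kinase of the axonal injury response, was 111, 103, 98.4 and 108 CPM in Control-shRNA cultures and 35.8, 40.3, 40.2 and 39.5 CPM in Dnmt3a1-shRNA2 cultures (log2 fold change −1.43, standard error 0.07, adjusted p = 4.18e-10). Rab27b, a small GTPase of vesicle secretion, changed by −1.49 (standard error 0.13, adjusted p = 4.16e-07). The lower-expressed genes of the list included Itgb3, the integrin beta subunit of vitronectin receptors, at 2.20 to 2.99 CPM in the control and 0.673 to 0.9997 CPM in the knockdown (−1.67, standard error 0.18, adjusted p = 6.50e-06). Ell3, a transcription elongation factor, was at 2.54 to 4.17 and 0.642 to 1.59 CPM (−1.56, standard error 0.25, adjusted p = 3.41e-04). The predicted gene Gm2163 was at 1.47 to 2.20 and 0.481 to 0.752 CPM (−1.68, standard error 0.43, adjusted p = 0.0115). The knockdown and control libraries were apart in each, which the choice of these genes required. These 12 decreases, Dnmt3a included, kept their calls in all 8 fits that left out 1 stimulated library.

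Over all genes tested, 10 were called higher by more than 1.5 on the log2 scale. Among protein-coding genes of at least 1 CPM with groups that did not overlap, Mstn had the largest increase. It encodes myostatin, a secreted growth inhibitor of the TGF-beta family. Mstn was 1.19, 2.24, 1.72 and 1.82 CPM in Control-shRNA cultures and 10.2, 10.7, 10.7 and 8.05 CPM in Dnmt3a1-shRNA2 cultures. The lowest knockdown library was at 8.05 CPM and the highest control library at 2.24 CPM, and the log2 fold change was 2.51 (standard error 0.16, adjusted p = 1.19e-08). Crh, corticotropin-releasing hormone, was 2.08, 2.41, 2.37 and 1.93 CPM in the control and 8.27, 6.22, 4.06 and 4.43 CPM in the knockdown (log2 fold change 1.38, standard error 0.20, adjusted p = 1.65e-04). Knockdown replicate 1 was the highest and replicate 3 the lowest, still above every control library. Rrad, a small GTPase that restrains voltage-gated calcium channels, was 1.45, 3.16, 2.54 and 1.89 CPM in the control and 3.999, 8.96, 4.88 and 4.69 CPM in the knockdown (1.31, standard error 0.28, adjusted p = 0.00373). Mdga1, a membrane protein that binds neuroligins, rose from 99.3 ± 23.7 to 213 ± 54.2 CPM (SD, n = 4; 1.10, standard error 0.24, adjusted p = 0.00390). Plxnc1, the receptor of a membrane-bound semaphorin, rose from 92.04 ± 13.5 to 185 ± 15.4 CPM (1.004, standard error 0.10, adjusted p = 2.04e-06). Fgl2, a secreted fibrinogen-like protein, rose by 1.16, the protocadherin Pcdh18 by 1.04, Chodl, a membrane lectin, by 1.18, the hyaluronan-binding Tnfaip6 by 0.96, Lgr5, a receptor for R-spondins, by 0.95, the predicted gene Gm45902 by 0.98 and Nup62cl by 1.17, each on the log2 scale, with adjusted p from 1.10e-05 to 0.0129. Nup62cl alone among these 12 increases lost its call when a library was left out, without stimulated Dnmt3a1-shRNA2 replicate 1 (0.97, adjusted p = 0.0501).

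The called genes of highest level lay in both directions, 4 in each by the naming rule, of which Fosb and Homer1 are given with the activity genes. Kif1b, a kinesin that carries mitochondria and synaptic vesicle precursors, was 1380.1, 1227, 1198 and 1226 CPM in Control-shRNA cultures and 885, 744, 746 and 781 CPM in Dnmt3a1-shRNA2 cultures (log2 fold change −0.67, standard error 0.08, adjusted p = 2.36e-05). Syn2, synapsin II of the vesicle membrane, was 859.9, 842, 847 and 872 CPM in the control and 380.0, 306, 329 and 360.2 CPM in the knockdown (−1.32, standard error 0.07, adjusted p = 1.30e-09). Dlg4, the postsynaptic scaffold of excitatory synapses, was 839, 814, 744 and 747 CPM and 474, 438, 471 and 474 CPM (−0.76, standard error 0.05, adjusted p = 5.52e-08). In each of these genes the knockdown libraries lay below the control libraries. Upward, Timp2, an inhibitor of matrix metalloproteinases, was 733, 890.4, 832 and 792 CPM in the control and 1317, 1275, 1267 and 1237 CPM in the knockdown (0.65, standard error 0.06, adjusted p = 2.04e-06). Thra, the thyroid hormone receptor alpha, rose from 1486 ± 52.5 to 2106 ± 43.4 CPM (SD, n = 4; 0.50, standard error 0.06, adjusted p = 1.11e-05). Stmn1, a protein that destabilizes microtubules, rose from 691 ± 36.7 to 987 ± 82.7 CPM (0.51, standard error 0.08, adjusted p = 3.07e-04). Both stand at the fold threshold. Thra lost its call without stimulated Control-shRNA replicate 1 or Dnmt3a1-shRNA2 replicate 2 or 4 (0.48 to 0.50, adjusted p = 6.94e-05 to 9.07e-05). Stmn1 lost it without stimulated Control-shRNA replicate 1 or Dnmt3a1-shRNA2 replicate 2 or 4 (0.48 to 0.49, adjusted p = 0.00144 to 0.00181). Both lost it with library sizes alone (0.43 and 0.44).

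**Figure D2:**
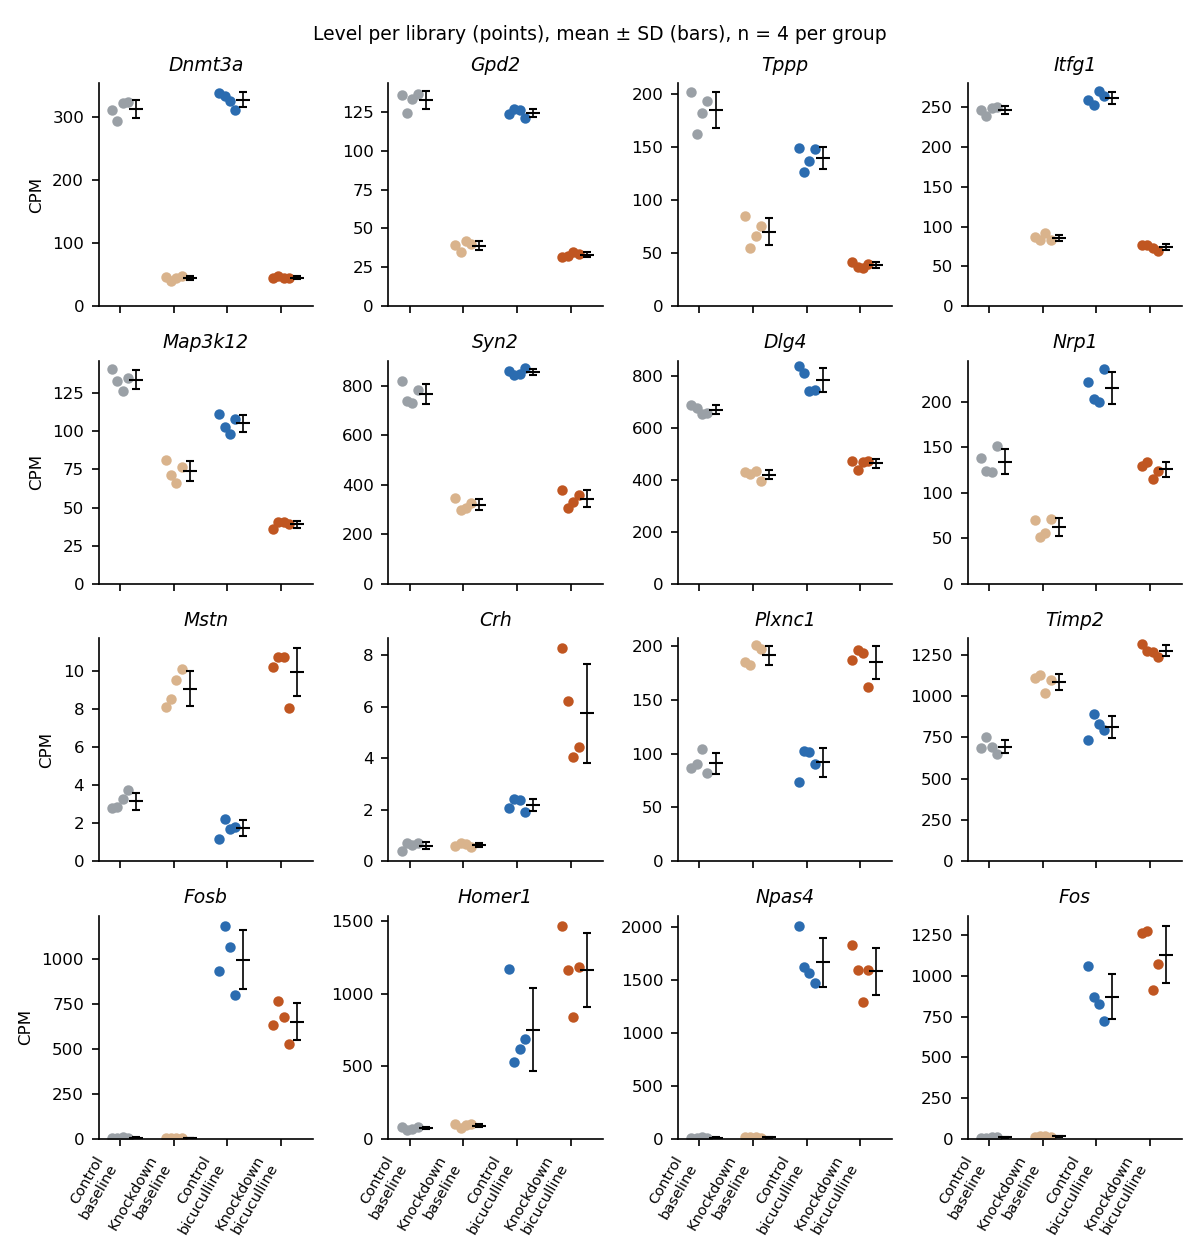
Level of 16 genes in every library, in CPM on a linear axis from 0, for Control-shRNA and Dnmt3a1-shRNA2 in baseline (grey and tan) and with bicuculline (blue and orange); black bars give the mean and SD of the 4 libraries. The stimulated knockdown libraries lie below all stimulated control libraries in Dnmt3a, Gpd2, Tppp, Itfg1, Map3k12, Syn2, Dlg4, Nrp1 and Fosb, above them in Mstn, Crh, Plxnc1 and Timp2, and overlap them in Homer1, Npas4 and Fos.

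Genes that fell often carried a word of the hairpin's target in their 3′ untranslated region (3′ UTR). Each of the 19 overlapping 7-base words of the target was looked for, on the transcript strand, in the longest annotated 3′ UTR of 14385 tested protein-coding genes, of which 591 were called lower and 263 higher. The word at bases 13 to 19, GAAAGGA, was in 18.7% of all genes, in 41.96% of those called lower and in 14.1% of those called higher. The word 1 base on, AAAGGAA, which shares 6 bases with it, was in 26.2%, 44.2% and 24.3%, and the next, AAGGAAG, in 22.3%, 28.9% and 22.4%. For the other 16 words of the target the share among genes called lower was within 4 percentage points of that among all genes.

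Of the genes with both words 11.2% were called lower, of those with GAAAGGA alone 5.68%, of those with AAAGGAA alone 3.31% and of those with neither 2.85%. The share with GAAAGGA was 52.2% among the 113 genes, Dnmt3a left out, that were called lower with a log2 fold change of −1 or less, 46.4% among 151 between −1 and −0.75, and 36.2% among 326 between −0.75 and −0.5. The 3′ UTR was not longer in the genes called lower, with a median of 1199 bases against 1232 in all genes and 1744 in those called higher. Within the shortest, middle and longest class (equal numbers of genes) of 3′ UTRs, genes called lower held the word in 17.8%, 45.5% and 64.0% of cases, all genes in 4.44%, 14.2% and 37.4% and genes called higher in 0%, 9.41% and 23.8%. In coding sequences the shares were 22.8% of genes called lower, 20.3% of all and 17.1% of those called higher. In baseline, which shares no library with the stimulated comparison, 44.4% of the 612 genes called lower held it. The reverse complements of the words were searched as well, and of these TTCCTTT stood out, in 29.9% of all genes, 25.7% of those called lower and 42.6% of those called higher. These shares describe the annotated sequence, the word GAAAGGA was singled out with these shares known, and whether the hairpin acts on any of these transcripts was not tested.

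Of the 11 largest decreases other than Dnmt3a that have an annotated 3′ UTR, 7 held the word, among them Gpd2, Tppp, Itfg1, Scarb1, Rab27b and Map3k12, and of the 12 largest increases 0 did. The stretches of 3′ UTR around the longest match to the target are given for 8 called genes, from GENCODE M21 on GRCm38, 30 bases each on the strand of the transcript, with the bases matched to the target in capitals. They lie at chr2:57367612-57367641 (plus strand), chr13:74035326-74035355 (plus), chr8:85718553-85718582 (minus), chr5:125277115-125277144 (minus), chr15:102499858-102499887 (minus), chr6:115274376-115274405 (plus), chr4:149178901-149178930 (minus) and chr7:19303785-19303814 (minus). Matches run from 7 bases in Itfg1 over 8 in Gpd2, Tppp and Kif1b and 9 in Scarb1, Map3k12 and Fosb to 10 in Syn2.
Gpd2: acaaaatcaaaGAAAGGAAagggataagca
Tppp: aacttaaacttGAAAGGAAtaatatgctac
Itfg1: ctgaggatggtGAAAGGAcgtgtaaataaa
Scarb1: atcatcttttGAAAGGAAGtcatgactgaa
Map3k12: gagctataaaGAAAGGAAGctggccccttc
Syn2: gaagagaaaaGAAAGGAAGGcagggagggg
Kif1b: tgccttgcaaaGAAAGGAAaagtggaccat
Fosb: ggagttagacTCGAAAGGAtgaccacgacg

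**Figure D3:**
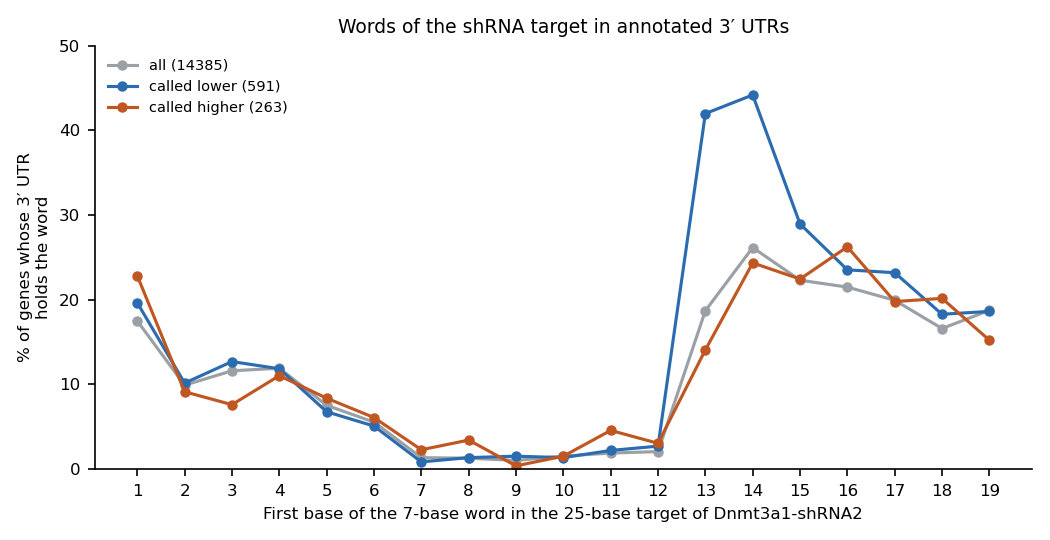
Share of genes (in %) whose longest annotated 3′ UTR holds each 7-base word of the 25-base target, by the position of the word's first base, for all tested protein-coding genes (grey), genes called lower (blue) and genes called higher (orange). At positions 13 and 14 the blue points stand at 41.96% and 44.2%, against 18.7% and 26.2% in all genes, and at most other positions the lines run close together.

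The genes that the study followed up by PCR mostly stood lower in the stimulated knockdown. Nrp1, a co-receptor for semaphorins and vascular growth factor, was 222, 203, 199.5 and 236 CPM in Control-shRNA cultures and 129, 134, 116 and 124 CPM in Dnmt3a1-shRNA2 cultures (log2 fold change −0.78, standard error 0.10, adjusted p = 4.28e-05). Alkal2, a ligand of the receptor kinases ALK and LTK, was 100.3, 52.6, 59.9 and 73.9 CPM and 45.01, 33.8, 34.6 and 39.5 CPM (−0.91, standard error 0.19, adjusted p = 0.00353). Npy, neuropeptide Y, was 127, 68.6, 91.6 and 112 CPM and 67.4, 53.9, 51.9 and 59.04 CPM (−0.78, standard error 0.17, adjusted p = 0.00498). Crhbp, the binding protein of corticotropin-releasing hormone, was 83.5, 68.7, 92.98 and 77.9 CPM and 48.6, 43.6, 56.6 and 40.8 CPM (−0.77, standard error 0.17, adjusted p = 0.00521). The groups did not overlap in these genes. In Npy the gap was small, with the lowest control library at 68.6 and the highest knockdown library at 67.4 CPM. Cacng5, an auxiliary subunit of AMPA receptors, was 51.9, 67.5, 69.6 and 48.8 CPM and 32.6, 27.2, 49.7 and 35.8 CPM (−0.71, standard error 0.21, adjusted p = 0.0262), with overlapping groups. Its call was lost without stimulated Control-shRNA replicate 2 or 3 or Dnmt3a1-shRNA2 replicate 1, 2 or 4 (−0.71 to −0.60, adjusted p = 0.0597 to 0.0905). The cation channel gene Trpc6 was 5.03, 6.35, 6.11 and 4.60 CPM and 3.68, 3.85, 4.56 and 3.06 CPM and did not pass the test (−0.54, standard error 0.23, adjusted p = 0.119). With the replicate number as a block it was called (−0.55, adjusted p = 0.0156), as in a fit of the stimulated libraries alone (−0.54, adjusted p = 0.0383). The study chose these genes with results of these libraries in hand, so their values here are no independent evidence of a direction. By PCR in separate stimulated cultures, the study reports lower Alkal2, Cacng5 and Nrp1 with this hairpin and with another hairpin against Dnmt3a1. For Crhbp, Npy and Trpc6 it reports that a hairpin of this pair gave no significant effect. The PCR data were not examined here. None of the 6 genes holds GAAAGGA in its annotated 3′ UTR, while 18.7% of all genes do, a share that depends on length. These 3′ UTRs have 180 bases in Npy, 549 in Nrp1, 566 in Crhbp and 591 in Alkal2. Of all genes in that class, up to 738 bases, 4.44% hold the word. The 3′ UTRs have 1711 bases in Trpc6 and 2747 in Cacng5, against a median of 1232 in all genes. In their classes, the middle and the longest, 14.2% and 37.4% hold it. With 6 genes, the lack of the word does not set them apart from all genes. Nrp1 holds the word in its coding sequence, as do 20.3% of all genes.

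Among 20 genes that write, erase or read DNA methylation, 2 were called (10%) and both were lower. Dnmt3a, the target of the hairpin, is among them, and its call was set by the design. The share therefore cannot be weighed against the 5.89% of all genes. The median over all genes tested was −0.01. Of germline genes that promoter methylation keeps silent, 7 of 22 were high enough to test. Of these 0 were called higher, against 2% of all genes, and 1 lower, against 3.9%. With 7 genes, 0 calls cannot be told apart from a share of 2%. Dazl, an RNA-binding protein of germ cells, was lower, at 1.04 to 2.14 CPM in Control-shRNA cultures and 0.356 to 0.889 CPM in Dnmt3a1-shRNA2 cultures (−1.26, standard error 0.33, adjusted p = 0.0123), a call lost without stimulated Control-shRNA replicate 4 (−1.07, adjusted p = 0.0502). Of 45 imprinted genes, 2 were called higher and 1 lower (6.67% called). Plagl1, a zinc finger factor of growth control, rose from 147 ± 20.3 to 241 ± 20.7 CPM (SD, n = 4; 0.71, standard error 0.10, adjusted p = 6.57e-05). The non-coding Mirg (0.52) lost its call without stimulated Control-shRNA replicate 2 or 3 or Dnmt3a1-shRNA2 replicate 2 or 4 (0.44 to 0.48, adjusted p = 0.0220 to 0.0295). Mcts2 (−0.52) lost its call without stimulated Control-shRNA replicate 1 or 4 or Dnmt3a1-shRNA2 replicate 1 or 2 (−0.49 to −0.45, adjusted p = 0.0222 to 0.0380). In a list of 362 zinc finger genes 3 were called higher and 13 lower (4.42% called, against 5.89% of all genes), with a median of −0.11. The largest changes among them were those of Zfp618 (−1.32, standard error 0.12, adjusted p = 5.24e-07), Zfp853 (−1.25) and Zfp184 (0.88). Of 45 histone deacetylases, demethylases and lysine methyltransferases 8.89% were called. The methyltransferase genes Setd7 (80.1, 71.5, 78.97 and 86.9 CPM in the control and 154, 130.3, 127 and 126 CPM in the knockdown, 0.76, standard error 0.11, adjusted p = 1.22e-04) and Ezh2 (0.67) were higher and Hdac8 (−0.67) and Hdac10 (−0.56) lower. The call of Hdac10 was lost without stimulated Control-shRNA replicate 2 (−0.50, adjusted p = 0.0230). No gene of 13 in the small-RNA silencing machinery was called, by edgeR, with 3 of them at an adjusted p under 0.05 and a fold change below the threshold.

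Clustered protocadherins are adhesion proteins whose choice of promoter is tied to DNA methylation. Of 56 tested, 3 were called (5.36%, against 5.89% of all genes), all higher, with a median of 0.17 (0.04 to 0.18 under the other scalings and tests), and 13 had an adjusted p under 0.05, all upward. Pcdhgc4 was 128, 174, 158 and 138 CPM in Control-shRNA cultures and 198, 228, 233 and 234 CPM in Dnmt3a1-shRNA2 cultures (0.58, standard error 0.11, adjusted p = 0.00121). Pcdhgb6 (0.57) and Pcdhgb7 (0.58) were the other called members. Pcdhgb6 lost its call without stimulated Control-shRNA replicate 1 or Dnmt3a1-shRNA2 replicate 2 (0.47 to 0.49, adjusted p = 0.00124 to 0.00281). The call of Pcdhgb7 was lost without stimulated Control-shRNA replicate 1 (0.46, adjusted p = 0.00632). Where genes of a cluster share their last exons, as the 3 called gamma genes do, the quantification can move reads between them and single members are uncertain.

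The immediate early genes stood mostly at overlapping levels in both groups. Npas4, an activity-dependent transcription factor, was 2002, 1617, 1559.5 and 1469.9 CPM in Control-shRNA cultures and 1831, 1594, 1293 and 1591 CPM in Dnmt3a1-shRNA2 cultures (−0.08, standard error 0.19, adjusted p = 0.831). Fos was 1059, 873, 829 and 726 CPM and 1260.0, 1276, 910.0 and 1070.5 CPM (0.37, standard error 0.17, adjusted p = 0.136). Arc, which regulates AMPA receptor endocytosis, was 1079.8, 589.7, 638 and 652 CPM and 931, 821, 554 and 758 CPM (0.05, standard error 0.22, adjusted p = 0.903). The groups overlapped in each, and the sign for Arc turned with the scaling (−0.02 with library sizes alone). Of 20 immediate early genes 3 were called (15%, against 5.89% of all genes). Fosb, a partner of Jun in the AP-1 factor, was 933, 1182, 1066 and 804 CPM and 635, 770.1, 679 and 528 CPM (−0.61, standard error 0.16, adjusted p = 0.0156). Its groups were apart, and it lost its call without stimulated Control-shRNA replicate 2 or Dnmt3a1-shRNA2 replicate 4 (−0.52, adjusted p = 0.0530 to 0.0572). Ier3 was 6.25 to 10.4 and 4.35 to 5.96 CPM (−0.60). Maff, a small basic leucine zipper protein, was 22.7 to 31.7 and 32.4 to 41.8 CPM (0.54). The call was lost for Ier3 without stimulated Control-shRNA replicate 3 or 4 or Dnmt3a1-shRNA2 replicate 1 or 4 (−0.61 to −0.46, adjusted p = 0.0608 to 0.122). For Maff it was lost without stimulated Control-shRNA replicate 2 or 3 or Dnmt3a1-shRNA2 replicate 4 (0.47 to 0.49, adjusted p = 0.0295 to 0.0333). The list's median was 0.07.

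Secreted and synaptic genes of the later activity response were called in 6 of 30 cases (20%, against 5.89% of all genes). Of the 6, 2 were higher, Mstn and Homer1, and 4 lower, among them Ptgs2, Pthlh and Nrp1. As for all lists here, the members were chosen with earlier results of these data known. Mstn, Homer1 and Nrp1 are also counted in other lists. The share is therefore no independent evidence of a difference from all genes. Ptgs2, the inducible prostaglandin synthase, was 201, 99.4, 123.5 and 145 CPM in Control-shRNA cultures and 106, 63.9, 41.2 and 62.2 CPM in Dnmt3a1-shRNA2 cultures (−1.06, standard error 0.27, adjusted p = 0.0115). Knockdown replicate 1 reached into the range of the control libraries. Pthlh, a parathyroid hormone-like peptide, was 35.7, 20.98, 23.7 and 23.99 CPM and 15.7, 10.3, 12.7 and 12.4 CPM (−1.03, standard error 0.17, adjusted p = 4.72e-04). Homer1, a scaffold that links metabotropic glutamate receptors, was 1169, 528, 617 and 691 CPM and 1467, 1161, 843 and 1188 CPM (0.63, standard error 0.20, adjusted p = 0.0368). Control replicate 1 overlapped the knockdown libraries, and the call of Homer1 was lost without stimulated Control-shRNA replicate 2, 3 or 4 or Dnmt3a1-shRNA2 replicate 1, 2 or 4 (0.50 to 0.63, adjusted p = 0.0713 to 0.121). The list's median of −0.02 lay near that of all genes, and its called members lay on both sides. Of 17 feedback inhibitors of MAP kinases, 1 was called (5.88%, against 5.89% of all genes). It was Spred3 (−0.55, standard error 0.12, adjusted p = 0.00315), which lost its call without stimulated Control-shRNA replicate 1 (−0.46, adjusted p = 0.0106).

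Of 21 neuropeptide genes 14.3% were called, against 5.89% of all genes. Crh was higher and Cort and Npy were lower. Cort, cortistatin of GABAergic cells, was 25.1, 26.7, 29.9 and 24.4 CPM in Control-shRNA cultures and 12.2, 12.4, 16.9 and 14.3 CPM in Dnmt3a1-shRNA2 cultures (−0.93, standard error 0.12, adjusted p = 2.99e-05). Among 28 peptide receptors and binding proteins 2 were higher and 3 lower (17.9% called). The somatostatin receptor gene Sstr3 was 23.7, 21.8, 23.2 and 22.5 CPM and 9.07, 7.40, 13.5 and 11.3 CPM (−1.14, standard error 0.16, adjusted p = 1.03e-04). The delta opioid receptor gene Oprd1 was 7.56 to 9.75 and 4.04 to 5.63 CPM (−0.89). Another somatostatin receptor gene, Sstr1, stood higher at 96.8 to 111 and 133 to 187 CPM (0.56), a call lost without stimulated Dnmt3a1-shRNA2 replicate 1 (0.45, adjusted p = 0.00141). The galanin receptor gene Galr1 (0.77) lost its call without stimulated Control-shRNA replicate 1, 2 or 4 or Dnmt3a1-shRNA2 replicate 2 or 3 (0.69 to 0.75, adjusted p = 0.0602 to 0.0862). For the Crh system the peptide gene was higher and the gene of its binding protein Crhbp lower.

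Of 56 growth factor and receptor genes 6 were called higher and 4 lower (17.9% called, against 5.89% of all genes). Beside Mstn and Alkal2 these included Igf1r, the receptor of insulin-like growth factors, at 20.7, 32.4, 34.1 and 25.9 CPM in Control-shRNA cultures and 47.3, 44.1, 55.5 and 40.6 CPM in Dnmt3a1-shRNA2 cultures (0.73, standard error 0.15, adjusted p = 0.00224). The neuregulin gene Nrg1 was higher too (0.60, standard error 0.13, adjusted p = 0.00355). Igfbp4, which binds insulin-like growth factors, was lower at 102, 95.5, 95.4 and 91.1 CPM and 52.7, 53.5, 58.3 and 57.9 CPM (−0.79, standard error 0.08, adjusted p = 2.74e-06). Ltk, a receptor for Alkal2, was also lower, at 2.13 to 2.95 and 1.07 to 1.41 CPM (−1.08, standard error 0.15, adjusted p = 1.06e-04). Fgfr2 (0.56) and Areg (−0.82) lost their calls, Fgfr2 without stimulated Control-shRNA replicate 1 (0.48, adjusted p = 0.00166) and Areg without stimulated Control-shRNA replicate 1, 3 or 4 or Dnmt3a1-shRNA2 replicate 2 or 4 (−0.82 to −0.67, adjusted p = 0.0689 to 0.108). Of 48 Wnt pathway genes 2 were higher and 4 lower (12.5% called). Rspo1 and Rspo3 encode R-spondins, secreted amplifiers of Wnt signals. Rspo3 was 12.7, 16.6, 15.03 and 13.7 CPM and 8.04, 8.11, 9.62 and 5.28 CPM (−0.90, standard error 0.14, adjusted p = 2.03e-04) and Rspo1 1.86 to 2.40 and 0.713 to 1.11 CPM (−1.20). Their receptor gene Lgr5 was higher, at 6.14, 4.69, 4.22 and 5.86 CPM and 15.5, 8.11, 7.77 and 9.16 CPM. Wnt9b (−1.18), near 1 CPM, and Nkd2, a Wnt inhibitor (−0.90), were lower, and the receptor gene Fzd3 (0.54) lost its call without stimulated Control-shRNA replicate 2 or 4 or Dnmt3a1-shRNA2 replicate 1 (0.39 to 0.52, adjusted p = 0.0501 to 0.0743).

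Among axon guidance genes the semaphorin receptors differed in direction. Plxnc1 rose while Nrp1 fell. Of the ligands Sema4c rose (44.9, 47.9, 48.1 and 48.2 CPM in Control-shRNA cultures and 68.6, 84.3, 66.5 and 73.04 CPM in Dnmt3a1-shRNA2 cultures, 0.63, standard error 0.07, adjusted p = 8.51e-06). Sema4f fell (32.8, 44.8, 41.4 and 38.9 CPM and 14.6, 17.6, 18.5 and 14.7 CPM, −1.27, standard error 0.11, adjusted p = 3.57e-07). The groups were apart in both. The other 25 of 29 genes of this list were not called, and the share called was 13.8%, against 5.89% of all genes. Of 37 Eph, ephrin, Slit, Robo and netrin genes 3 were called (8.11%), all lower: the receptor gene Epha5 (256, 229.7, 231 and 256 CPM and 137, 109, 104 and 121 CPM, −1.05, standard error 0.11, adjusted p = 4.84e-06), the ligand gene Efna2 (−1.03) and the netrin receptor gene Dcc (−0.77). Without the fold threshold, at an adjusted p under 0.05 by edgeR, 7 of these 37 genes were higher and 3 lower. The median of the 37 genes was 0.13, above that of all genes.

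In 6 lists of synaptic genes 4.55% to 8.33% of the members were called, against 5.89% of all genes. Of 42 genes of vesicles and release, Syn2 and the synaptotagmin Syt6 (−0.56) were lower, and Syn3, synapsin III, was higher, at 6.81, 12.96, 10.9 and 10.1 CPM in Control-shRNA cultures and 18.4, 22.1, 19.3 and 18.6 CPM in Dnmt3a1-shRNA2 cultures (0.94, standard error 0.19, adjusted p = 0.00267). Syt6 lost its call without stimulated Dnmt3a1-shRNA2 replicate 3 (−0.49, adjusted p = 0.0157). Of 32 postsynaptic density genes Dlg4 was lower and Homer1 higher and of 16 AMPA receptor genes Cacng5 was lower. Of 24 genes of GABA synthesis, transport and receptors 2 were called, both lower. Gabrb1, a subunit of GABA-A receptors, was 193, 173, 186 and 171 CPM and 133, 90.9, 113 and 98.4 CPM (−0.73, standard error 0.14, adjusted p = 0.00120), with groups apart. Over 51 synaptic adhesion molecules the median was 0.25, with 4 called (7.84%) and 18 of them at an adjusted p under 0.05 upward and 4 downward. The median was 0.17 with library sizes alone and 0.11 with log2(TPM + 1), where 1 member was called. Called higher were Slitrk2 (75.5, 55.03, 59.8 and 67.6 CPM and 138, 94.01, 79.7 and 101 CPM, 0.68, standard error 0.13, adjusted p = 0.00164), Ncam2 (0.60) and Slitrk4 (0.58), and called lower the cadherin Cdh12 (−0.62). Slitrk4 lost its call without stimulated Dnmt3a1-shRNA2 replicate 1 (0.44, adjusted p = 0.0518).

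Among 72 potassium channel genes 5 were called (6.94%, against 5.89% of all genes), all lower, and the median was −0.01. With the replicate block 8 were called. Kcnn1, a calcium-activated channel of the afterhyperpolarization, was 23.4, 22.5, 23.2 and 20.1 CPM in Control-shRNA cultures and 11.9, 9.96, 13.7 and 12.1 CPM in Dnmt3a1-shRNA2 cultures (−0.91, standard error 0.09, adjusted p = 2.91e-06). The modifier subunits Kcng1 (−0.81, standard error 0.13, adjusted p = 4.44e-04), Kcng2 (−0.87) and Kcns3 (−0.81) were lower too, and Kcng2 overlapped between the groups. The fifth, Kcnc2, lies outside the naming rule and was added after its values were seen (mean 96.6 CPM in the control and 64.4 CPM in the knockdown, −0.59). Of 33 sodium, calcium and HCN channel genes, Scn3b (185, 268, 260.4 and 234 CPM and 326, 404, 381 and 313 CPM, 0.59, standard error 0.11, adjusted p = 9.99e-04) and the L-type calcium channel gene Cacna1d (0.51) were higher and Scn7a, below 1 CPM, lower. The call of Scn3b was lost without stimulated Control-shRNA replicate 1 (0.48, adjusted p = 0.00232). Cacna1d lost its call without stimulated Control-shRNA replicate 1 or Dnmt3a1-shRNA2 replicate 1 or 2 (0.46 to 0.49, adjusted p = 6.86e-04 to 7.89e-04). Scn7a lost its call without stimulated Control-shRNA replicate 2, 3 or 4 or Dnmt3a1-shRNA2 replicate 1, 2 or 4 (−1.04 to −0.84, adjusted p = 0.0629 to 0.115). Of 17 TRP channel genes 1 was called, Trpv2 (15.7, 19.9, 19.5 and 16.9 CPM and 8.59, 10.1, 12.4 and 9.16 CPM, −0.84, standard error 0.11, adjusted p = 4.95e-05). Of 40 monoamine and acetylcholine receptor genes 1 was higher, Adra2a, an alpha adrenergic receptor (42.5, 49.99, 45.8 and 45.7 CPM and 82.5, 77.2, 69.1 and 66.6 CPM, 0.68, standard error 0.10, adjusted p = 1.76e-04), and 3 were lower: the nicotinic subunits Chrna1 (−1.34) and Chrnb3 (−1.22), both near 1 CPM, and Adra2c (−0.57). Chrnb3 lost its call without stimulated Control-shRNA replicate 2 or 3 or Dnmt3a1-shRNA2 replicate 1, 2 or 4 (−1.21 to −1.02, adjusted p = 0.0515 to 0.0916), and Adra2c without stimulated Control-shRNA replicate 2 (−0.40, adjusted p = 0.0449). In second-messenger lists the adenylyl cyclases Adcy3 (58.7, 62.4, 60.1 and 55.9 CPM and 36.7, 31.9, 39.8 and 36.6 CPM, −0.71, standard error 0.06, adjusted p = 5.84e-07) and Adcy7 (−0.88) were the called genes of 29, and Rgs8 (−0.60, standard error 0.11, adjusted p = 0.00105) that of 19 regulators of G-protein signalling. All of these were lower. The shares called were 9.09% of the sodium, calcium and HCN channel genes, 5.88% of the TRP channel genes and 10% of the monoamine and acetylcholine receptor genes. They were 6.90% of the phosphodiesterases and adenylyl cyclases and 5.26% of the regulators of G-protein signalling.

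In 3 lists of matrix genes 6.25% to 8.82% of the members were called, against 5.89% of all genes. The median was 0.24 over 40 collagen genes, 0.20 over 32 integrins, laminins and thrombospondins and 0.19 over 34 genes of the perineuronal net and matrix proteases. The medians of these lists differed between libraries of a group by SDs of 0.13, 0.17 and 0.15. Under the other scalings and tests they fell to as little as 0.07, 0.06 and 0.04. With the replicate block 7 collagen genes were called, in place of 3. Col5a2 was higher (0.63, standard error 0.14, adjusted p = 0.00390), as were Col28a1 (0.81) near 1 CPM, the protease gene Adamts18 (0.82) and Timp2, and Col26a1 was lower (60.2, 54.1, 61.1 and 60.3 CPM in Control-shRNA cultures and 30.8, 23.8, 40.2 and 37.8 CPM in Dnmt3a1-shRNA2 cultures, −0.83, standard error 0.15, adjusted p = 8.04e-04). Hapln4, a link protein of the perineuronal net, fell from 7.94 ± 1.46 to 3.30 ± 0.436 CPM (SD, n = 4; −1.27, standard error 0.21, adjusted p = 5.36e-04). Thbs3 (0.54) lost its call without stimulated Dnmt3a1-shRNA2 replicate 2 or 4 (0.46 to 0.50, adjusted p = 0.0453 to 0.0578).

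In the list of 33 unfolded protein and stress response genes 3 were called (9.09%, against 5.89% of all genes), all lower. Canx, calnexin, was at 472, 416, 441 and 459 CPM in Control-shRNA cultures and 244, 223, 235 and 252 CPM in Dnmt3a1-shRNA2 cultures (−0.91, standard error 0.07, adjusted p = 6.84e-08). Pdia3, its partner disulfide isomerase, was at 196, 184, 194 and 207 CPM and 90.5, 93.2, 89.5 and 100.1 CPM (−1.06, standard error 0.07, adjusted p = 1.19e-08). Mthfd2, of mitochondrial folate metabolism, was the other (−0.69, standard error 0.12, adjusted p = 7.77e-04). Canx and Pdia3 are chaperones of glycoprotein folding, and the list's median was −0.07. Of 31 genes of cholesterol and fatty acid synthesis 2 were called (6.45%), both higher. Insig1, a brake on sterol synthesis, was 168, 145, 145 and 149.99 CPM and 318, 267, 221 and 305 CPM (0.87, standard error 0.13, adjusted p = 2.09e-04). The call of Idi1 (0.64) was lost without stimulated Control-shRNA replicate 2, 3 or 4 or Dnmt3a1-shRNA2 replicate 1, 2 or 4 (0.51 to 0.71, adjusted p = 0.0530 to 0.135). Hrk, a neuronal death-promoting member of the Bcl2 family, was higher (52.6, 84.99, 78.8 and 71.6 CPM and 125, 159, 142 and 108 CPM, 0.89, standard error 0.14, adjusted p = 2.56e-04). Bid of the same family was lower (−0.52), a call lost without stimulated Dnmt3a1-shRNA2 replicate 4 (−0.48, adjusted p = 0.00852). Gpd2 was the called gene among 31 genes of glycolysis and glucose or lactate transport, and the other 30 were not called (median −0.03). Of 81 nuclear respiratory chain genes Cox6a2 (−0.54) was called, of 76 cytosolic ribosomal protein genes Rps13 (−0.52) and of 24 interferon genes Stat2 (−0.69). Cox6a2 lost its call without stimulated Control-shRNA replicate 2 or 3 or Dnmt3a1-shRNA2 replicate 1, 2 or 4 (−0.53 to −0.46, adjusted p = 0.0774 to 0.0980). Rps13 lost its call without stimulated Control-shRNA replicate 1 or Dnmt3a1-shRNA2 replicate 2 (−0.50, adjusted p = 3.16e-04 to 5.14e-04). The call of Stat2 was lost without stimulated Control-shRNA replicate 1, 3 or 4 or Dnmt3a1-shRNA2 replicate 2 or 3 (−0.70 to −0.55, adjusted p = 0.0852 to 0.121). The 13 mitochondrially encoded protein genes had log2 fold changes from 0.27 to 0.52, none at an adjusted p under 0.05, while the median varied between libraries of a group by an SD of 0.41.

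Markers show a culture of neurons with some glia in both groups. The 15 pan-neuronal markers summed to 12486 to 13371 CPM in Control-shRNA cultures and 13421 to 15469 CPM in Dnmt3a1-shRNA2 cultures, the 15 excitatory markers to 3451 to 4075 CPM in Control-shRNA cultures and 3649 to 4138 CPM in Dnmt3a1-shRNA2 cultures. The 18 GABAergic markers summed to 3100.2 to 3532 CPM in Control-shRNA cultures and 2696 to 3167 CPM in Dnmt3a1-shRNA2 cultures. For 14 astrocyte markers the sum was 1158 to 1535 CPM in Control-shRNA cultures and 1425 to 1730.0 CPM in Dnmt3a1-shRNA2 cultures. For 9 markers of the oligodendrocyte lineage it was 119 to 239 CPM in Control-shRNA cultures and 146 to 241 CPM in Dnmt3a1-shRNA2 cultures. For 14 of fibroblasts and vessels it was 76.1 to 133 CPM in Control-shRNA cultures and 109 to 149.7 CPM in Dnmt3a1-shRNA2 cultures. Proliferation markers, 11 of them, summed to 58.8 to 65.6 CPM in Control-shRNA cultures and 69.9 to 78.4 CPM in Dnmt3a1-shRNA2 cultures. The 10 microglia markers summed to 28.2 to 34.4 CPM in Control-shRNA cultures and 25.7 to 29.9 CPM in Dnmt3a1-shRNA2 cultures. The ranges overlap between the groups for all lists except the pan-neuronal and the proliferation markers, whose sums were higher in every knockdown library. The sum of the proliferation markers was mostly Pcna, with a mean of 46.3 CPM in the control and 58.2 CPM in the knockdown. Of the 11 proliferation markers 5 had a log2 fold change above 0 and 6 below, and 0 were called, with a median of −0.03. The groups overlapped in most of the 3 most abundant markers of each cell type, such as Map2 (1681 to 2021 and 1834 to 2479 CPM), Slc17a7 (1068 to 1243 and 848 to 1151 CPM), Gad1 (968 to 1268 and 795 to 1050.2 CPM) and Slc1a2 (353 to 433 and 333 to 404 CPM). They did not overlap in Pcna of proliferating cells (42.5 to 50.3 and 54.9 to 61.9 CPM, 0.33, standard error 0.07, adjusted p = 0.00210) and in Csf1r (2.16 to 3.33 and 1.22 to 1.66 CPM). No marker was without counts in all 8 libraries, but the microglia markers Aif1, P2ry12, Cx3cr1, Tmem119 and Fcrls and the oligodendrocyte markers Mag, Mobp, Sox10, Opalin, Enpp6 and Gpr17 were too low to test. Among the markers, Dcx of immature neurons was called higher (161, 158, 149.9 and 148 CPM and 266, 245, 202 and 239 CPM, 0.62, standard error 0.11, adjusted p = 5.76e-04). The excitatory marker Wfs1 (0.54), the astrocyte genes S100b (0.84) and Slc4a4 (0.51) and the fibroblast gene Lum (0.67) were higher too. Called lower were Dlx5 of GABAergic cells (13.8, 12.4, 11.1 and 11.96 CPM and 5.86, 6.55, 5.31 and 6.46 CPM, −1.03, standard error 0.12, adjusted p = 1.58e-05), Npy and the microglial Csf1r (−0.75). The median was 0.41 over the astrocyte markers, with an SD between libraries of a group of 0.35, and −0.14 over the GABAergic markers, with an SD of 0.13. With the replicate block 5 astrocyte markers and 1 proliferation marker were called, in place of 2 and 0. The call of Wfs1 was lost without stimulated Control-shRNA replicate 1 or 4 (0.46 to 0.49, adjusted p = 0.00758 to 0.00810). S100b lost its call without stimulated Control-shRNA replicate 1 or 3 or Dnmt3a1-shRNA2 replicate 2 (0.66 to 0.79, adjusted p = 0.0502 to 0.0738). The other astrocyte gene, Slc4a4, lost it without stimulated Control-shRNA replicate 1 or 4 or Dnmt3a1-shRNA2 replicate 3 (0.40 to 0.46, adjusted p = 0.0526 to 0.0564). Lum was not called without stimulated Control-shRNA replicate 1, 3 or 4 or Dnmt3a1-shRNA2 replicate 2 or 4 (0.52 to 0.70, adjusted p = 0.0621 to 0.122). Csf1r was not called without stimulated Control-shRNA replicate 4 or Dnmt3a1-shRNA2 replicate 4 (−0.67 to −0.56, adjusted p = 0.0754 to 0.1001). The part that the mix of cells takes in the changes of Cort, Npy, Crhbp and other GABAergic genes was not tested.

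**Figure D4:**
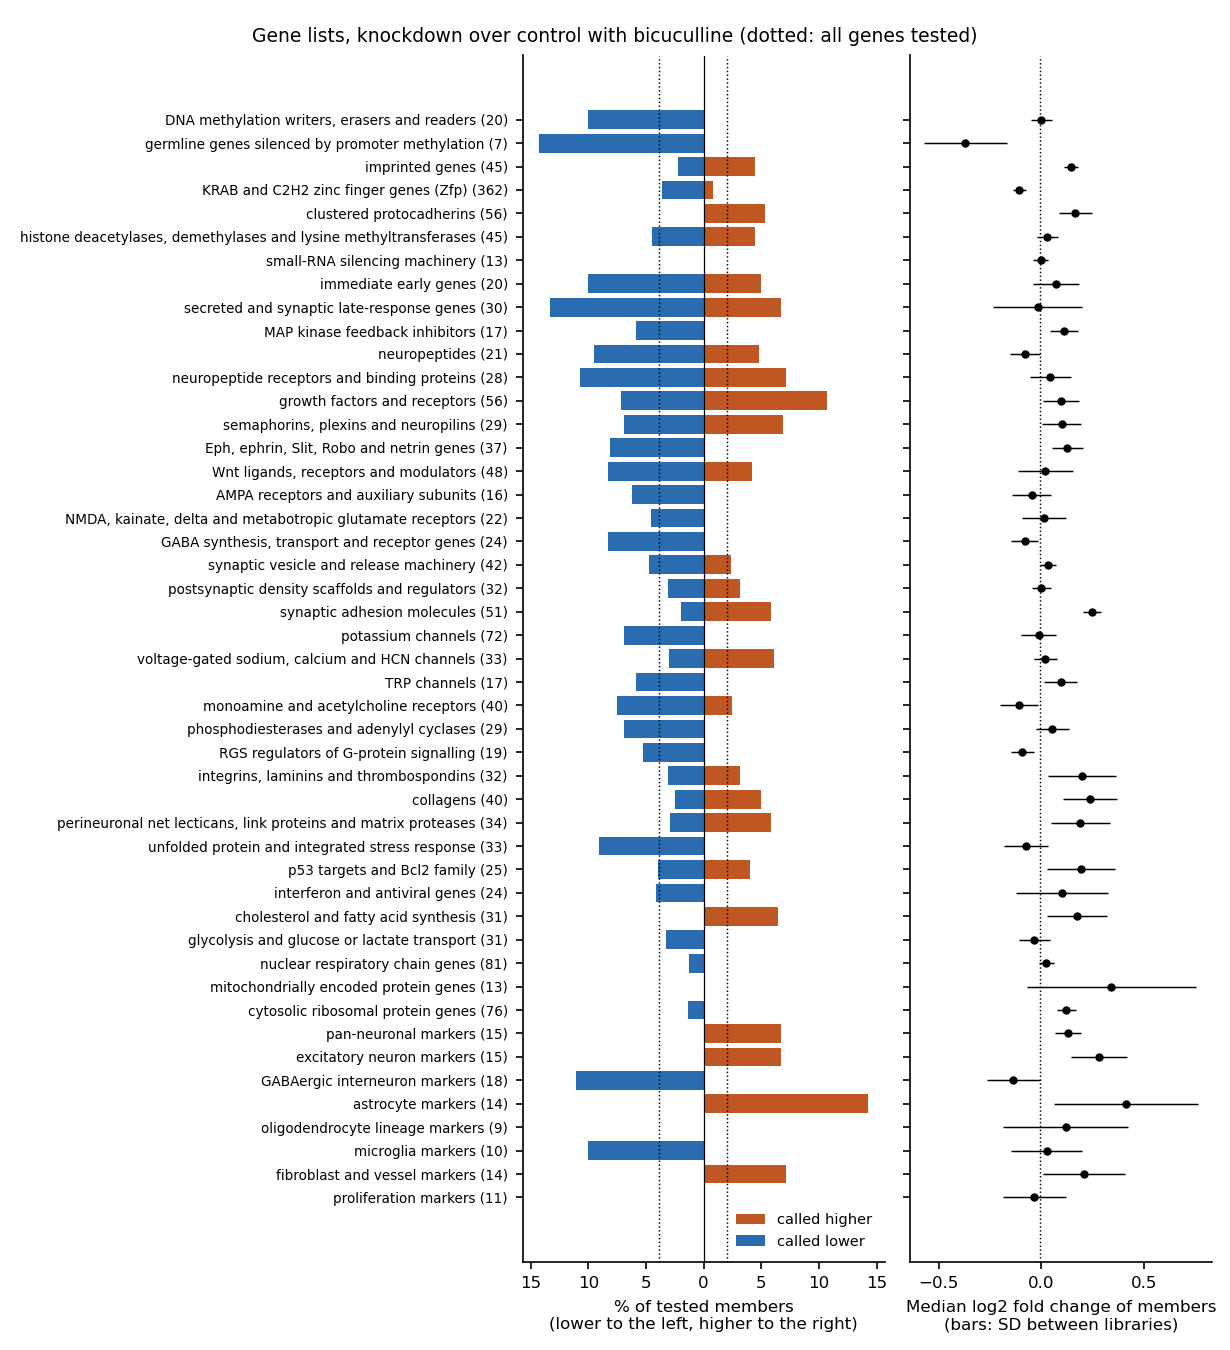
For each of the 47 gene lists (number of tested members in brackets), the share of members called lower (blue, to the left) and higher (orange, to the right) in the left panel, and the median log2 fold change of the members in the right panel with bars of 1 SD between libraries of a group; dotted lines give the values over all 17222 genes tested. Most lists have both colours or only a few called members, and 6 genes or fewer stand behind each blue or orange bar except that of the 362 zinc finger genes, where 13 were lower.

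Most genes that differed with bicuculline had a difference of the same sign without stimulation. In baseline, with 8 other libraries, 1004 genes were called (5.83%), and 559 genes were called in both conditions, all 559 in the same direction, 144 higher and 415 lower. They make up 55.1% of the genes called with bicuculline and 55.7% of those called in baseline. Of the 1015 genes called with bicuculline 96.9% had the same sign in baseline, against 76.3% of all tested genes. Across genes, which are not independent replicates, the fold changes of both conditions correlated with a Pearson r of 0.55 over all genes and of 0.84 over genes whose mean reached 10 CPM. All 12 of the largest decreases were also called lower in baseline, for example Gpd2 at −1.77, Tppp at −1.39 and Itfg1 at −1.52.

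Of the 12 largest increases 7 were called in baseline as well, and Crh (0.06), Rrad (−0.10), Tnfaip6 (0.04), Lgr5 (0.49) and Gm45902 (0.42) were not. These 5 genes rose with bicuculline in control cultures by 1.35 to 4.78 on the log2 scale, a comparison that shares its stimulated control libraries with the knockdown values. The test of the difference between the conditions (the interaction) did not call them, with adjusted p of 0.485 or more. Over all genes the interaction called 0 genes (0%) at an adjusted p under 0.05 by edgeR and 0 by voom with limma, while DESeq2 called 17, and 852 genes (4.95%) had an unadjusted p under 0.05 by edgeR. With the replicate block edgeR called 3. The smallest adjusted p, 0.147, was reached by Map3k12, with a log2 fold change of −0.86 in baseline and −1.43 with bicuculline. Mstn was 1.52 in baseline and 2.51 with bicuculline (interaction adjusted p = 0.394), and Nrp1 −1.11 and −0.78 (interaction adjusted p = 0.962). Nrp1 in the stimulated knockdown stood at 126 CPM, against the 134 CPM of unstimulated control cultures.

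**Figure D5:**
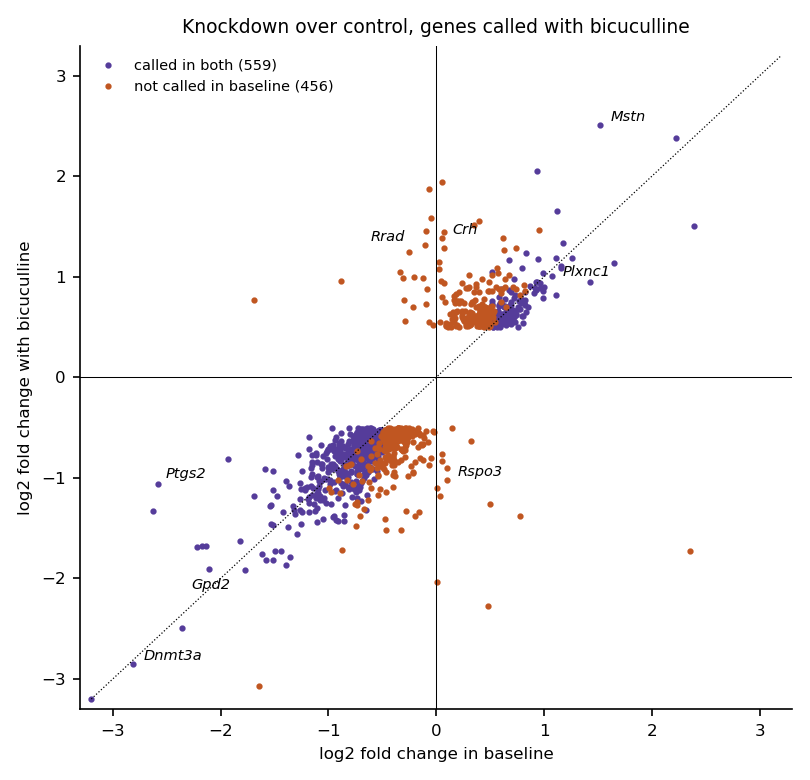
Log2 fold change of the knockdown with bicuculline (vertical) against that in baseline (horizontal) for the 1015 genes called with bicuculline; purple points are the 559 genes called in both conditions, orange points the 456 not called in baseline, the dotted line marks equal values and 1 gene beyond 3.2 is drawn at the edge. Most points lie in the lower left and upper right parts, with Crh and Rrad near 0 on the horizontal axis.

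The classes of genes were compared by how many of them were called. Over all genes tested 2% were called higher and 3.9% lower. Of 14516 tested protein-coding genes 264 were called higher (1.82%) and 594 lower (4.09%). Of 659 long intergenic non-coding RNAs 17 were higher (2.58%) and 22 lower (3.34%), and of 602 antisense RNAs 10 (1.66%) and 17 (2.82%). Both non-coding classes lay near the shares of all genes. Their median levels were 0.738 and 0.758 CPM, against 18.7 CPM in protein-coding genes. Genes longer than 100 kb were called higher in 3.32% of 2288 cases and lower in 3.63%, shorter genes in 1.54% and 4.18% of 12228, and the median log2 fold change was 0.06 and −0.02. Among 10 equal classes of gene length the median ran from −0.06 in genes of 8.49 to 12.9 kb to 0.06 in the longest, from 144 kb. The longer genes were also the more abundant, with a median of 33.98 CPM in the longest class and 11.2 CPM in the shortest, and their parts were not separated. By level, genes called lower made up 7.37% of the genes from 2.42 to 5.70 CPM and 1.72% of those above 159 CPM, genes called higher 2.07% and 2.55%. By chromosome, genes called lower made up between 2.62% (chromosome 3) and 5.65% (chromosome 8) of the tested genes. A split by the CpG content of the 250 bases before the start is void, because RefSeq promoter sequences were matched for 79.0% of the genes and for 71.6% of those called higher, under the 80% needed.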

How the data were processed

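Bulk RNA of 16 primary hippocampal cultures was sequenced, and the 8 stimulated libraries were compared. Reads were trimmed with Trim Galore 0.6.4 and quantified with kallisto, whose version differs between the sources used here, on the mouse genome GRCm38. The authors deposited estimated counts per gene, summed over transcripts, and these were rounded to whole numbers here. The authors also deposited TPM values, which are scaled by effective length and library total and served as an alternative on the log2 scale. Neither table separates Dnmt3a1 from Dnmt3a2, and reads of overlapping genes or near-identical copies may be split between them.

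edgeR 4.0.16 (R 4.3.3) was fitted to all 4 groups of 4 libraries with TMM scaling and filterByExpr, and contrasts were tested by quasi-likelihood with Benjamini-Hochberg adjustment over 17222 genes. Calls need an adjusted p under 0.05 together with a log2 fold change beyond 0.5 in either direction, interactions the adjusted p alone. The study itself used voom with limma. Standard errors were derived from the F statistic. Alternatives used limma 3.58.1, DESeq2 1.42.0, other scalings, filters, thresholds and the omission of each library. The study describes the 4 replicates of a condition as independent neuronal preparations, and no source used here says whether libraries of the same number share one. Depth was 28912480 to 29586138 counts per library.

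Members and gene lists were chosen with earlier results of these data known. The genes named are Dnmt3a, Dnmt1 and Dnmt3b, the genes the study names for its sequencing, the 12 largest changes in each direction among protein-coding genes of at least 1 CPM with groups that do not overlap, the 4 called genes of highest level in each direction, up to 4 called members of each list in each direction and the 3 most abundant markers of each cell type. Gene positions and untranslated regions are from GENCODE M21 (GRCm38), to which 55144 of 55385 identifiers matched. Results for some genes that meet this rule are not reported here. The fits were tested on simulated data.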

Additional observations from a re-analysis of the deposited data

Results flagged for a closer look

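In 12 of 262 groups of 4 libraries 1 library lay far from the other 3 by Dixon's test, as chance gives for about 1 in 20 groups. Among stimulated Control-shRNA libraries, replicate 1 was high in Kif1b at 1380.1 CPM (others 1198 to 1227) and in Arc at 1079.8 CPM (others 589.7 to 652), and low in Sema4c at 44.9 CPM (others 47.9 to 48.2). Replicate 2 was low in Col26a1 at 54.1 CPM (others 60.2 to 61.1) and in Hdac8 at 2.73 CPM (others 3.87 to 3.98), and replicate 4 was high in Csf1r at 3.33 CPM (others 2.16 to 2.30). Among stimulated Dnmt3a1-shRNA2 libraries, replicate 1 was high in Slitrk4 at 198 CPM (others near 141), in Setd7 at 154 CPM (others 126 to 130.3) and in Nup62cl at 2.49 CPM (others 1.43 to 1.59), and low in Pcdhgc4 at 198 CPM (others 228 to 234). Replicate 2 was low in Dlg4 at 438 CPM (others 471 to 474) and high in Dnmt1 at 55.0 CPM (others 49.4 to 50.2). Without the library named, the calls of Nup62cl, Slitrk4 and Csf1r were lost and those of the other called genes were kept.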

How the results depend on the processing

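With bicuculline 1015 genes were called, and 787 to 1107 under other tests, scalings and filters. Without a fold threshold the number was 3046, above 1 on the log2 scale 185, and without 1 library 864 to 1152. In baseline it was 2809, 175 and 827 to 1122. An interaction was called for 17 genes by DESeq2, for 3 without a filter on low counts, for 0 to 1 without 1 library and for 0 by the other settings but the replicate block. With the replicate block 1338 genes were called with bicuculline, 1284 in baseline and 3 for the interaction. Correlations between same-numbered stimulated libraries were 0.388, 0.128, 0.304 and 0.0667 over all genes, where numbers 1 and 3 correlated best with their own number. Over genes of at least 10 CPM they were 0.676, 0.274, 0.645 and 0.391, with 1, 3 and 4 best matched, and in baseline 0.549 to 0.716, all best matched. The labels name no shared preparation, and the fit without the block was kept. The block changed the call of no named gene but Trpc6. Arc turned to −0.019 with library sizes alone, to −0.035 with log2(TPM + 0.1) and to −0.034 with log2(TPM + 1), and without 1 library it ran from −0.059 to 0.29, Npas4 from −0.16 to 0.023. Of 129 named genes called, 91 kept their call in all fits without 1 library, 90 in all other alternatives and 78 in both, and 0 changed sign. Trpc6 was also called in a fit of the stimulated libraries alone. The share of genes called lower with GAAAGGA in the 3′ UTR ran from 36.9% to 46.1%, alternatives chosen after the data were seen. Genes near 1 CPM have the widest errors. The causes of these shifts were not tested.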
